A study of Mus musculus with 39 samples.

Results

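The genes described here are 7 targets of the transcription factor NRF2 and a pair of metallothioneins: Hmox1, Nqo1, Gclm, Gclc, Txnrd1, Srxn1, Slc7a11, Mt1 and Mt2. A probe was taken when the platform's annotation gave it one of these 9 gene symbols and its detection p was below 0.01 on 3 or more arrays. Of 16 such probes on the array, 8 met this rule, for 7 of the 9 genes, among 23665 of 45281 probes that met it in the whole table. The samples were RNA from mouse testis in 13 groups: organ cultures started from testes of 7.5 days post partum (dpp) and taken after 2, 4, 6, 7, 9 and 14 days, and testes taken in vivo at 9.5, 11.5, 13.5, 14.5, 16.5 and 21.5 dpp, the ages the cultures would have reached, and at 7.5 dpp. Each group had 3 arrays except 13.5 dpp in vivo, which had 2, so 38 arrays of the 39 samples were used. All groups were untreated testes of male mice, and the labels name no strain, mutation, agent or culture medium. The labels do not say whether the arrays of a group stand for different animals. The p-values measure the spread between these samples and nothing wider, and that spread may be technical.

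NRF2, encoded by Nfe2l2, is held low by KEAP1, which directs it to degradation. Oxidants and electrophiles modify KEAP1, and NRF2 then accumulates, pairs with small MAF proteins and activates genes that carry antioxidant response elements, while BACH1 occupies many of the same elements as a repressor until haem displaces it. Metallothioneins are small cysteine-rich proteins that bind zinc, copper and cadmium. They are induced by zinc through the factor MTF1, which binds metal response elements, and metallothionein RNA is known to be abundant in mouse germ cells during and after meiosis.

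Signals are given as background-corrected, quantile-normalized log2 values, and a difference is a difference of group means on that scale. A probe was called when the Benjamini-Hochberg adjusted p, from limma over all 23665 probes, was below 0.05 and the difference was at least 1 (2-fold). Arrays detected 35.6% to 43.9% of probes, with mean signals of 368 to 789, and arrays of a group correlated at 0.929 to 0.992. In vivo 9.5 dpp replicate 2 had the lowest share of detected probes. The day 7 cultures had the lowest mean signals, 368 to 437. The summed signals of marker lists (normalized values on the linear scale) also differed between the groups. Erythrocyte markers summed to 133 to 1980 in cultures of day 4 and later, against 6970 to 99200 over all in vivo arrays. At the last age, spermatid markers summed to 1000 to 2330 in culture and 16600 to 21300 in vivo, macrophage markers to 21200 to 27900 in culture and 3320 to 4200 in vivo, and Sertoli cell markers to 48600 to 52700 in culture and 22000 to 24700 in vivo. Such a sum is weighted to its brightest markers and is not a count of cells. Over the 6 ages the mean size of the log2 difference was 5.69 for the macrophage marker Gpnmb and at most 2.04 for the others.

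Detection differed between the genes. Hmox1, Nqo1 (probe 1), Gclm, Mt1 and Mt2 were detected on all 38 arrays. Srxn1 (sulfiredoxin, which repairs over-oxidized peroxiredoxins) was detected by its probe 1 on 18 of 18 culture arrays and 14 of 20 in vivo arrays, and by its probe 2 on 7 of 18 culture arrays and 5 of 20 in vivo arrays. Slc7a11, the cystine importer that feeds glutathione synthesis, was detected by probe 1 on 3 of 18 culture arrays and 5 of 20 in vivo arrays, which made it the member just inside the rule, with 8 arrays. Just outside were Gclc, the catalytic subunit of the enzyme that starts glutathione synthesis, and Srxn1 probe 3, each detected on 2 arrays, all of them in vivo. Txnrd1 (thioredoxin reductase 1), Nqo1 probe 2 and Slc7a11 probes 2 to 5 were detected on 0 of 38 arrays. The raw signals of Gclc ran from 63.5 to 97.8 and those of Txnrd1 from 64.3 to 104, while the median of all probes was 71 to 102 per array. Gclc and Txnrd1 therefore have no measured level here, and nothing follows about their change.

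**Figure D1:**
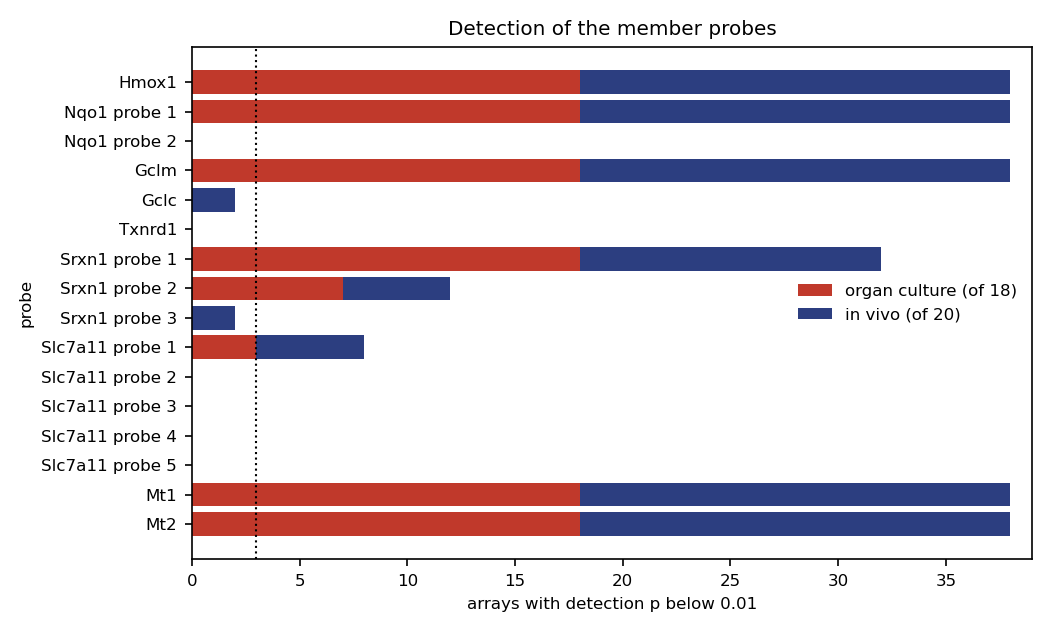
The number of arrays with detection p below 0.01 is plotted for each of the 16 probes, culture arrays in red and in vivo arrays in blue, with the 3-array rule as a dotted line. Hmox1, Nqo1 probe 1, Gclm, Mt1 and Mt2 reached all 38 arrays, Srxn1 probe 1 reached 32, and 8 probes stayed under the rule.

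The first question was whether the genes differed between culture and testis of the same age. Srxn1 probe 1 was higher in culture at 5 of the 6 ages, by 3.02-fold to 5.0-fold, and Hmox1 was higher at day 14, by 2.00-fold. At days 7 and 14 the Srxn1 folds were measured against in vivo groups in which 1 array of 3 was above background. These were the 6 calls made over the 8 probes and 6 ages, and none was in the lower direction. Among all probes, 4.65%, 4.61%, 5.51%, 5.0%, 4.69% and 17.6% were called higher at days 2, 4, 6, 7, 9 and 14, and 4.23%, 5.13%, 2.77%, 5.68%, 3.81% and 15.4% were called lower. Of the 8 probes, 1, 1, 0, 1, 1 and 2 were called higher at those days. The median difference over the 8 probes was 0.23, 0.10, -0.05, 0.42, 0.06 and 0.09, against 0.00, 0.00, -0.05, -0.01, -0.02 and 0.23 over all probes. In bulk RNA, a difference in how many cells of a type are present and a difference in RNA per cell cannot be told apart.

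Srxn1 is located on chromosome 2 (152105524 to 152111376, RefSeq GRCm38.p6). The 250 bases before its start are shown because it was the gene called at most ages. An antioxidant core written TGACNNNGC was searched on both strands from 250 bases before to 50 after each start, and 12.4% of 32851 promoters in the RefSeq table held it. Srxn1 held 1 such match, 29 bases after the start. A core with G in the fourth place, TGAGNNNGC, was added after the sequence had been seen, and 17.6% of promoters held it. Srxn1 held 2 matches, 158 and 45 bases before the start on opposite strands, which are in capitals.
Srxn1, chr2:152105274-152105523, plus strand: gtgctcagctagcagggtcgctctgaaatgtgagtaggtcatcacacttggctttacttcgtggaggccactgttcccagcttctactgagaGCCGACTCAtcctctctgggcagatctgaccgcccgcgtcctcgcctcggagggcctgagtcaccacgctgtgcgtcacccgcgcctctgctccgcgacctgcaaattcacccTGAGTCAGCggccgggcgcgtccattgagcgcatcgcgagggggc

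At culture day 2 the Srxn1 probe 1 signal was 8.78, 7.77 and 8.21 in culture, against 5.32, 7.39 and 6.91 in vivo at 9.5 dpp. Every culture array lay above every in vivo array, of which replicate 1 was not detected. The difference was 1.71 ± 0.54 (SE), with an adjusted p of 0.0203. At day 4 the signal was 8.30, 7.63 and 7.68 in culture, against 7.02, 6.70 and 5.10 in vivo, a difference of 1.59 ± 0.54 (adjusted p = 0.0294). Here the third in vivo array was not detected. At day 6 it was 7.72, 7.09 and 7.63 in culture, against 6.72 and 6.29 in the 2 in vivo arrays. The groups again did not overlap, but the difference of 0.98 ± 0.60 was not called (adjusted p = 0.304, 95% confidence interval -0.25 to 2.20). At day 7 the signal was 7.29, 8.35 and 6.93 in culture, against 4.89, 4.89 and 5.84 in vivo, where it was detected on 1 array of 3. This gave the widest of the 6 differences on this scale, 2.32 ± 0.54 (adjusted p = 0.00204). At day 9 it was 8.70, 7.65 and 8.08 in culture, against 6.68, 7.24 and 5.61 in vivo, a difference of 1.63 ± 0.54 (adjusted p = 0.0293). At day 14 it was 7.10, 7.69 and 7.47 in culture, against 4.91, 4.77 and 6.64 in vivo, a difference of 1.98 ± 0.54 (adjusted p = 0.0023). Only replicate 3 in vivo was detected at that age, and it lay below all culture arrays. The groups did not overlap at any of the 6 ages. How many of all probes had groups without overlap was not counted. Here and for the other genes, such separation of small groups is therefore only a description of the values.

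The day 7 and day 14 calls of Srxn1 probe 1 held with each of the 38 arrays left out in turn, with differences of 1.91 to 2.64 and 1.65 to 2.58. The others rested on single arrays. The day 2 call was lost without in vivo 9.5 dpp replicate 1 (1.10, adjusted p = 0.144), culture replicate 1 (1.45, 0.0863) or culture replicate 3 (1.73, 0.0501). The day 4 call was lost without in vivo 11.5 dpp replicate 3 (1.01, adjusted p = 0.203), culture replicate 1 (1.38, 0.11) or culture replicate 2 (1.71, 0.0509). The day 9 call was lost without in vivo 16.5 dpp replicate 1 (1.72, adjusted p = 0.0561) or replicate 3 (1.18, 0.193), or without culture replicate 1 (1.36, 0.129) or replicate 3 (1.67, 0.0706). In the authors' log2 values the differences of Srxn1 probe 1 at the 5 called ages were 0.57 to 0.74, all past the adjusted p and none 2-fold. The widest of these was at day 2 (0.74), beside 0.71 at day 7.

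The probes of Srxn1 disagreed. Srxn1 probe 2 was called at none of the 6 ages, with differences of 0.17, -0.22, 0.00, 0.93, 0.33 and -0.07. It was detected on 12 of 38 arrays, and the 7 culture arrays that detected it were replicate 3 at days 2, 4, 7, 9 and 14 (6.52, 5.91, 5.91, 6.38 and 6.39) and replicate 2 at days 7 and 14 (6.21 and 6.02). Over the 13 group means the probes correlated at 0.20, given as a description. Probe 1 had 65.7 to 454 raw signal units and probe 2 67.3 to 166, close to the array medians.

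Hmox1 encodes haem oxygenase 1, which opens the haem ring and releases iron and biliverdin. At day 14 its signal was 7.26, 6.42 and 7.02 in culture, against 6.21, 5.65 and 5.83 in vivo at 21.5 dpp. The groups did not overlap, and the difference was 1.00 ± 0.31 (adjusted p = 0.00722), at the 2-fold line. It stayed under 2-fold without in vivo 21.5 dpp replicate 2 (0.88) or replicate 3 (0.97), or without culture day 14 replicate 1 (0.82) or replicate 3 (0.94). At day 7 it was 8.12, 7.84 and 7.80 in culture, against 6.73, 6.90 and 7.42 in vivo, a difference of 0.91 ± 0.31 that passed the adjusted p (0.0306) but not the 2-fold line. The differences at days 2, 4, 6 and 9 were 0.51, 0.41, -0.10 and 0.39, with adjusted p of 0.247 to 0.892. With median centring the Hmox1 difference was 0.46 at day 7 (adjusted p = 0.379) and 1.13 at day 14 (0.00943), and in the authors' log2 values it was 0.42 at day 7 (0.0409) and 0.30 at day 14 (0.099). With an offset of 50 the day 14 call was not made. Macrophages, which carry much Hmox1, had higher summed markers in the day 14 culture (21200 to 27900, against 3320 to 4200 in vivo) and lower ones in the day 2 culture (550 to 809, against 2740 to 6140 in vivo). Of 9 measured macrophage markers, 3 were called higher and 1 lower at day 14, and 1 higher and 8 lower at day 2, where 4 of the 9 were detected on no culture array. Their part in the result was not tested.

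Nqo1, the quinone reductase often used as a readout of NRF2, was below the in vivo level at days 2, 4, 6 and 9 and above it at days 7 and 14. At day 2 probe 1 had 7.06, 7.00 and 6.45 in culture, against 7.14, 8.38 and 7.28 in vivo, a difference of -0.76 ± 0.27 (adjusted p = 0.042). The in vivo value of 8.38 came from replicate 2, the array with the fewest detected probes. At day 4 the signal was 6.59, 6.38 and 5.90 in culture, against 7.32, 7.04 and 6.91 in vivo, a difference of -0.80 ± 0.27 (adjusted p = 0.0325). At day 7 it was 7.10, 6.96 and 7.56 in culture, against 5.95, 6.45 and 6.51 in vivo, 0.90 ± 0.27 higher (adjusted p = 0.0148). At day 14 it was 6.59, 6.35 and 6.48 in culture, against 5.72, 5.44 and 6.03 in vivo, 0.75 ± 0.27 higher (adjusted p = 0.0207). The groups did not overlap at any of these 4 ages, and none of the 4 differences reached 2-fold. At days 6 and 9, on either side of day 7, the differences were -0.31 and -0.40 and did not pass (adjusted p = 0.565 and 0.314). The interaction, the day 14 difference less the day 2 difference, was 1.51 ± 0.39 (adjusted p = 0.00202) and was called. Among all probes 19.3% were called higher and 16.1% lower by the interaction, 35.4% together, and among the 8 probes 1 was higher (Nqo1) and 1 lower (Slc7a11). It was called with each of the 38 arrays left out, at 1.12 to 1.74. With median centring the day 7 difference was 0.46 (adjusted p = 0.155) and the day 2 difference -0.60 (0.0734).

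Gclm, the modifier subunit of glutamate-cysteine ligase, differed least among the antioxidant genes detected on every array. Its differences between culture and in vivo ran from -0.32 to 0.25 with SE of 0.17 to 0.19, and the adjusted p from 0.232 to 0.811. At day 14 the signal was 9.98, 9.99 and 10.05 in culture, against 9.78, 9.88 and 9.63 in vivo, and the 95% confidence interval of that difference was -0.11 to 0.60. Over the 6 ages the intervals reached from -0.72 at the lowest to 0.60 at the highest, which leaves differences under 2-fold possible in both directions.

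Slc7a11 probe 1 was near its detection limit. At day 2 its signal was 5.35, 5.52 and 6.45 in culture, of which 1 was detected, against 4.48, 5.48 and 4.72 in vivo, where none was. The difference of 0.88 ± 0.32 passed the adjusted p (0.0481). Arrays without detection entered both means, so its size is not measured. At day 14 it ran the other way, with 4.71, 4.65 and 5.27 in culture, none detected, against 5.63, 5.50 and 6.48 in vivo, all detected. There it was at least 1.4-fold lower in culture (-0.99 ± 0.32, adjusted p = 0.00958). The interaction was called, with a fitted value of -1.87 ± 0.46 (adjusted p = 0.0013). Since no in vivo array at day 2 and no culture array at day 14 detected the probe, its size is not measured.

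**Figure D2:**
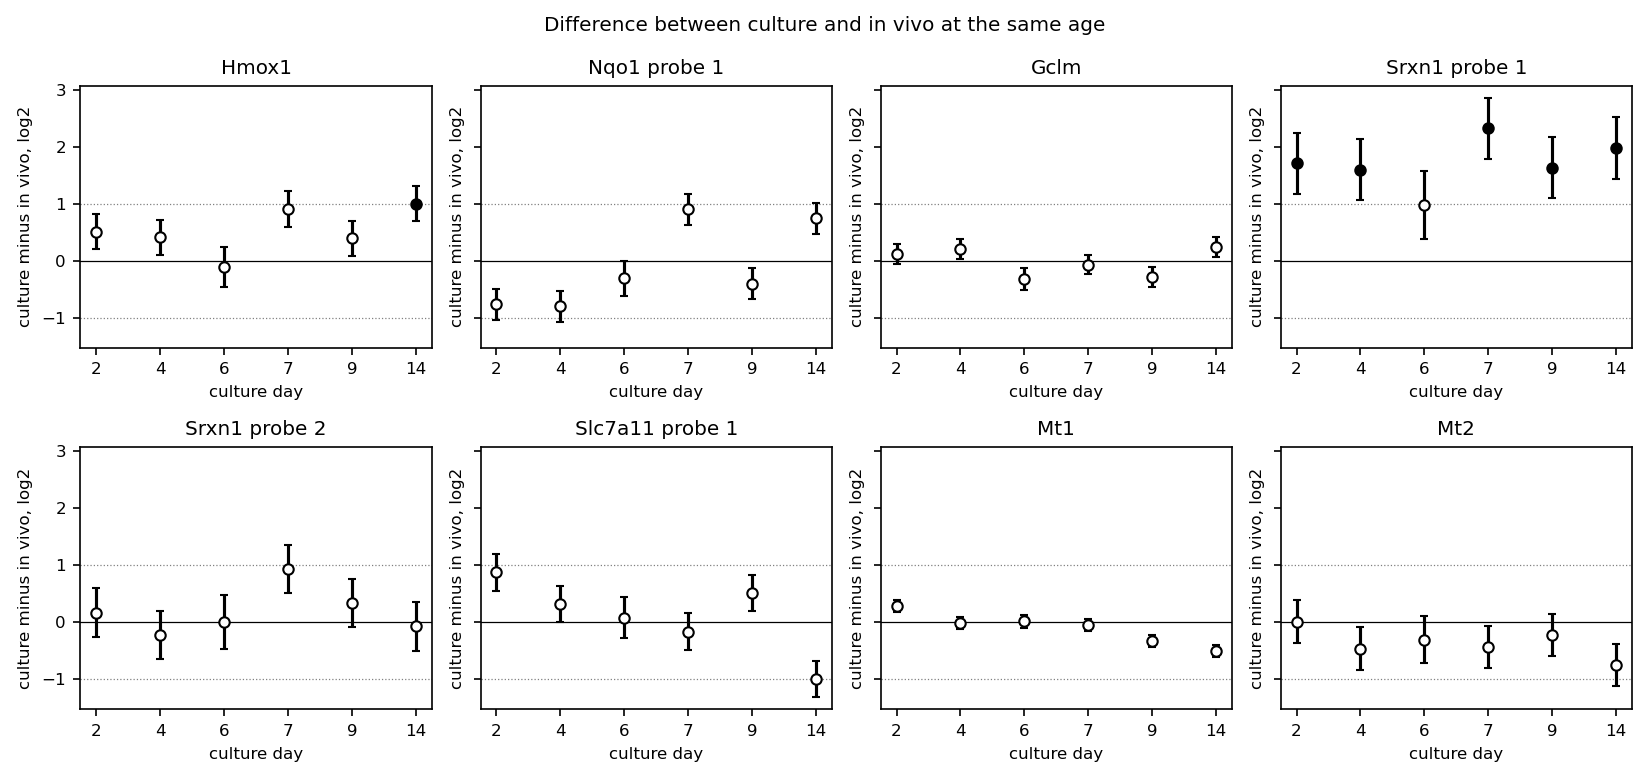
Each panel plots 1 probe's difference in log2 signal, culture minus in vivo, against culture day, with bars of 1 SE and filled symbols for calls. Srxn1 probe 1 was above the 2-fold line (dotted) at days 2, 4, 7, 9 and 14, Srxn1 probe 2 at no day, and Nqo1 probe 1 was below 0 at days 2, 4, 6 and 9 and above it at days 7 and 14.

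Mt1 and Mt2 lie beside each other on chromosome 8 (Mt1 94178883 to 94180327, Mt2 94172618 to 94173567, RefSeq GRCm38.p6), with 5316 bases between the end of Mt2 and the start of Mt1. A metal response core, written TGCACNC or TGCGCNC, was searched in the same windows and was present in 25.7% of all promoters. Mt2 held 4 matches, which 0.517% of promoters reached or passed, and Mt1 held 3. Gclm held 3 as well and Srxn1 held 1. The antioxidant core TGACNNNGC was found in Mt2 (79 bases before the start), Gclm (134 before) and 1 of the 3 Txnrd1 promoters, as well as in Srxn1. The bases before the start are shown with the metal response matches in capitals, 3 for Mt2 and 1 for Mt1. The remaining metal response matches of these 2 genes lay after the start. The antioxidant match of Mt2 is left in lower case. The start in the promoter table for Mt1 lies inside the gene's listed span. A match is a description of the letters and not of binding.
Mt1, chr8:94178839-94179088, plus strand: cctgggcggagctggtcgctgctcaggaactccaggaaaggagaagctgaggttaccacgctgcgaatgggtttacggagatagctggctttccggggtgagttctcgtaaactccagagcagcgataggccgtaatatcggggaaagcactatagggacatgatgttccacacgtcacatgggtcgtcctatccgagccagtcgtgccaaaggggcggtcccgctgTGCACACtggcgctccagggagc
Mt2, chr8:94172368-94172617, plus strand: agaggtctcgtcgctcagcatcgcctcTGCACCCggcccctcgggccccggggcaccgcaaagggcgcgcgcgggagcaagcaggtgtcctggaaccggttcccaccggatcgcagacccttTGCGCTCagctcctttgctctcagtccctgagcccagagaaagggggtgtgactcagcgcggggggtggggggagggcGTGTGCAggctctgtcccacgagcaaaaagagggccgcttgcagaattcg

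The metallothioneins were not higher in culture at any age by the call, and their values followed different courses. Mt1 had raw signals of 14500 to 45900, ranks 7 to 138 of 45281 on the arrays, near the upper end of the scale (array maxima 31500 to 61200), where differences can be compressed. At day 14 its signal was 14.65, 14.64 and 14.59 in culture, against 15.18, 15.07 and 15.12 in vivo. The groups were well apart for their spread, with a difference of -0.50 ± 0.11 (adjusted p = 0.000206), 1.42-fold lower in culture. At day 9 it was 14.12, 14.20 and 14.30 in culture, against 14.42, 14.50 and 14.69 in vivo, a difference of -0.33 ± 0.11 (adjusted p = 0.0272). At day 2 it was 14.39, 14.21 and 14.55 in culture, against 14.01, 14.16 and 14.13 in vivo (0.28 ± 0.11, adjusted p = 0.0561). The interaction for Mt1 was -0.78 ± 0.15 (adjusted p = 0.000106), under 2-fold. Spermatid markers were lower in the same culture, 1000 to 2330 against 16600 to 21300 in vivo, and their part in the Mt1 difference was not tested.

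Mt2 was detected on all 38 arrays, but its raw signals of 107 to 289 were far below those of Mt1. They lay nearer the array medians of 71 to 102. At day 14 its signal was 5.71, 6.28 and 5.75 in culture, against 6.52, 6.53 and 6.93 in vivo. The groups did not overlap, but the difference of -0.75 ± 0.37 did not pass (adjusted p = 0.0876, 95% confidence interval -1.51 to 0.01). At the other 5 ages the differences ran from -0.46 to 0.01. The interaction was -0.76 ± 0.53 (adjusted p = 0.245) with all arrays and -1.58 (adjusted p = 0.000231) without in vivo 9.5 dpp replicate 2, where Mt2 was 8.66 beside 6.06 and 6.30 in the other replicates.

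**Figure D3:**
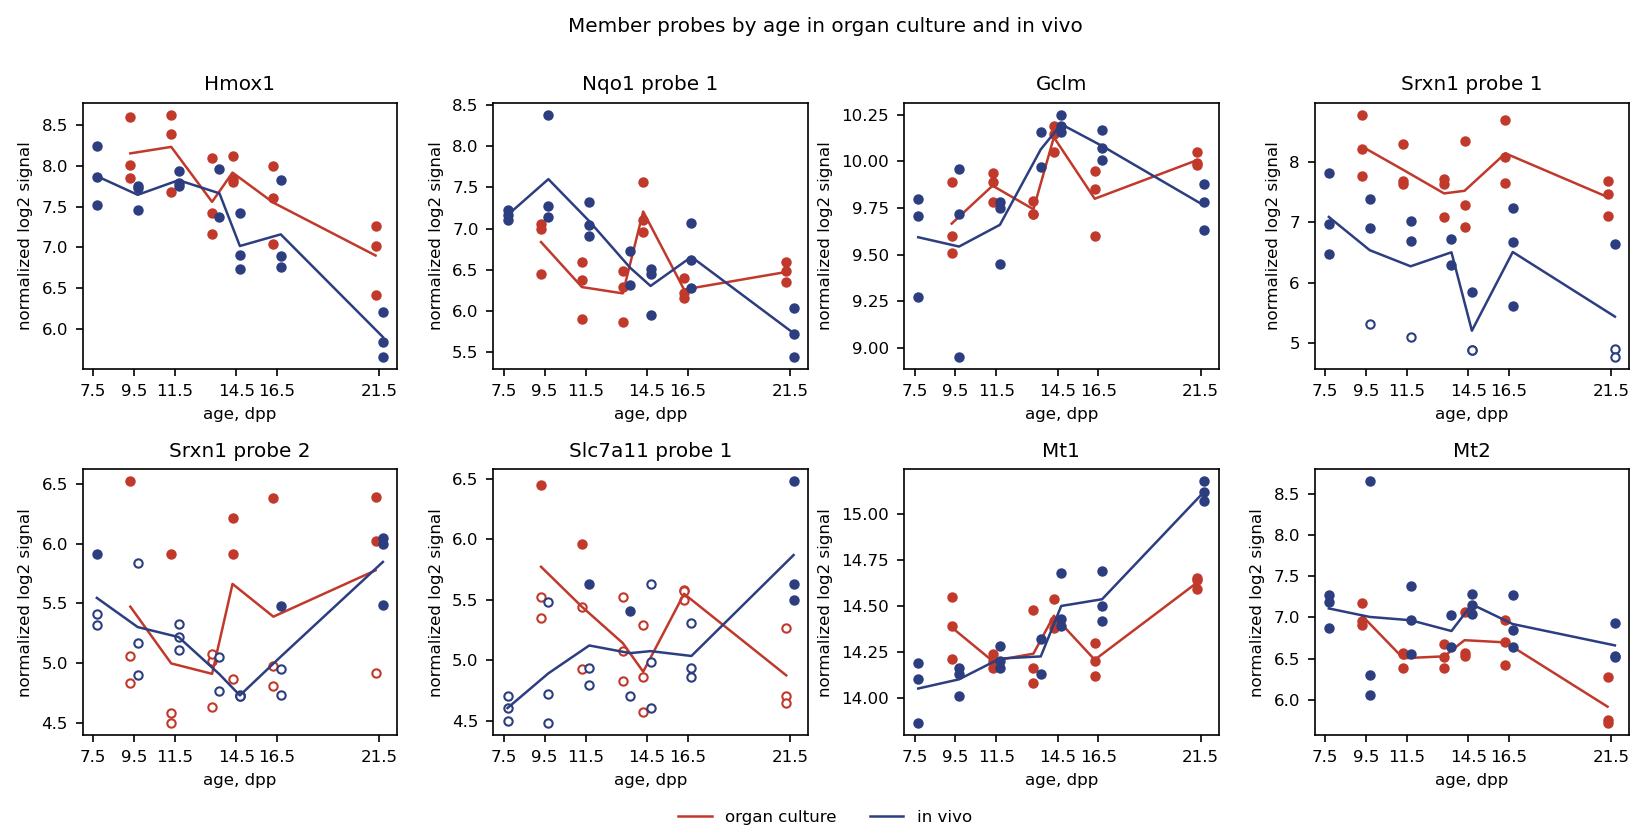
Normalized log2 signal is plotted against age for the 8 kept probes, 1 symbol per array, red for organ culture and blue for in vivo, with lines through the group means and open symbols for arrays without detection. The culture and in vivo values of Srxn1 probe 1 stayed apart at every age, Hmox1 was lower at the last age than at the earliest in each arm, and Mt1 was highest in vivo at 21.5 dpp.

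The second question was how the genes moved in the testis itself between 7.5 and 21.5 dpp. Most of the movement came at the last age: at 21.5 against 7.5 dpp, Hmox1, Nqo1 and Srxn1 fell and Mt1 and Slc7a11 rose. That is 2 of 8 probes higher and 3 lower, beside 19.6% and 26.2% of all probes, at an age when the median of all probes shifted by -0.31 and that of the 8 probes by -0.14. Before that age the only call was Srxn1 probe 1, lower at 14.5 dpp, when 6.14% of all probes were called lower. In either direction, 2.01%, 3.94%, 7.73%, 12.9%, 12.6% and 45.8% of all probes were called at 9.5, 11.5, 13.5, 14.5, 16.5 and 21.5 dpp. Hmox1 was 6.21, 5.65 and 5.83 at 21.5 dpp, against 8.25, 7.86 and 7.52 at 7.5 dpp, 3.94-fold lower (-1.98 ± 0.31, adjusted p = 1.81e-06). Nqo1 probe 1 was 5.72, 5.44 and 6.03 at 21.5 dpp, against 7.23, 7.16 and 7.10 at 7.5 dpp, 2.70-fold lower (-1.43 ± 0.27, adjusted p = 2.95e-05). Neither gene's groups overlapped, and both calls held with each array left out. At 21.5 dpp the raw signals were 93.7 to 126 for Hmox1 and 86.1 to 116 for Nqo1, detected but near background. In the authors' log2 values the differences were -0.74 for Hmox1 and -0.43 for Nqo1, under 2-fold and not called.

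Srxn1 probe 1 was 4.89, 4.89 and 5.84 at 14.5 dpp, against 6.47, 6.98 and 7.82 at 7.5 dpp, a difference of -1.89 ± 0.54 (adjusted p = 0.00863) that was lost without 7.5 dpp replicate 3 (-1.52, adjusted p = 0.0599). At 21.5 dpp the difference from 7.5 dpp was -1.65 ± 0.54 (adjusted p = 0.00773). There the groups overlapped, since replicate 3 at 21.5 dpp (6.64) exceeded replicate 1 at 7.5 dpp, and the call was lost without 7.5 dpp replicate 3 (-1.28, adjusted p = 0.0583) or 21.5 dpp replicate 2 (-1.31, 0.0551). Mt1 was 15.18, 15.07 and 15.12 at 21.5 dpp, against 13.86, 14.10 and 14.19 at 7.5 dpp, 2.11-fold higher (1.07 ± 0.11, adjusted p = 3.21e-10). Without 7.5 dpp replicate 1 the difference was 0.98, just under 2-fold (adjusted p = 1.58e-08). Mt1 also exceeded its 7.5 dpp level at 14.5 dpp (0.45, adjusted p = 0.00209) and 16.5 dpp (0.49, 0.00106), by less than 2-fold. With median centring those 2 differences were 0.11 and 0.17 and did not pass (adjusted p = 0.679 and 0.474). Slc7a11 probe 1 was 5.63, 5.50 and 6.48 at 21.5 dpp, all detected, against 4.61, 4.71 and 4.50 at 7.5 dpp, none detected, at least 1.16-fold higher (1.26 ± 0.32, adjusted p = 0.000962). Without 21.5 dpp replicate 3 this was 0.96, and with an offset of 50 it was not called. Gclm was 10.16, 10.25 and 10.19 at 14.5 dpp, against 9.27, 9.80 and 9.71 at 7.5 dpp (0.61 ± 0.17, adjusted p = 0.0087), and 0.17 from it at 21.5 dpp. With median centring the Gclm difference at 14.5 dpp was 0.54 and did not pass (adjusted p = 0.147). Mt2 differed from 7.5 dpp by -0.45 to 0.05, with no adjusted p under 0.287.

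By the F-test over the 7 in vivo ages, 6 of 8 probes varied, beside 77.0% of all probes. Over the 6 culture times 3 of 8 varied (Hmox1, Nqo1 and Mt1), beside 44.8%. Hmox1 was lower at culture day 14 than at day 2, with 7.26, 6.42 and 7.02 at day 14 against 7.85, 8.01 and 8.61 at day 2 (-1.26 ± 0.31, adjusted p = 0.00215). Mt2 was lower too, with 5.71, 6.28 and 5.75 at day 14 against 6.91, 6.96 and 7.18 at day 2 (-1.10 ± 0.37, adjusted p = 0.02). These were 2 of 8 probes, beside 8.09% of all probes called lower. The Mt2 call was lost without day 14 replicate 1 (-1.0, adjusted p = 0.068) or replicate 3 (-1.02, 0.0709), or without day 2 replicate 3 (-1.02, 0.0623).

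Against the 7.5 dpp testes from which the cultures started, 2 calls were made over 8 probes and 6 times. Among all probes 8.62%, 12.3%, 8.20%, 8.12%, 11.5% and 14.4% were called in either direction at days 2, 4, 6, 7, 9 and 14, with 4.29% higher at day 2 and 6.65% lower at day 14. Mt2 was 5.71, 6.28 and 5.75 at day 14, against 7.19, 7.27 and 6.87 at the start, 2.30-fold lower (-1.20 ± 0.37, adjusted p = 0.0143). It was lost without 7.5 dpp replicate 2 (-1.12, adjusted p = 0.0512), day 14 replicate 1 (-1.10, 0.054) or day 14 replicate 3 (-1.12, 0.0587). Neither this call nor that of Mt2 at day 14 against day 2 was made with an offset of 50 or in the authors' log2 values. Slc7a11 probe 1 was 5.35, 5.52 and 6.45 at day 2, against 4.61, 4.71 and 4.50 at the start (1.17 ± 0.32, adjusted p = 0.01). No starting array detected it, and at day 2 only replicate 3 did, so the size is not measured. Without that replicate it was not called (0.83, adjusted p = 0.104). Srxn1 probe 1 was not called against the start at any time. It was 8.78, 7.77 and 8.21 at day 2, against 6.47, 6.98 and 7.82 at the start, and the highest starting value lay inside the culture range (1.16 ± 0.54, adjusted p = 0.129). At day 14 it differed from the start by 0.33 ± 0.54 in culture, beside -1.65 ± 0.54 in vivo at 21.5 dpp. These comparisons share the 7.5 dpp arrays. Nqo1 probe 1 was lower than at the start at days 4, 6 and 9 by 0.87, 0.95 and 0.90 in size (adjusted p = 0.0171, 0.0135 and 0.0142), all under 2-fold, and Mt1 was above it at days 2, 7 and 14 by 0.33, 0.40 and 0.57 (adjusted p = 0.0263, 0.00801 and 0.000139). Hmox1 was 0.98 lower than at the start at day 14 (adjusted p = 0.0177), and past 2-fold without 7.5 dpp replicate 3 (-1.16), culture day 14 replicate 1 (-1.16) or culture day 14 replicate 3 (-1.04). Gclm was 0.54 above the start at day 7 (adjusted p = 0.0241), and Slc7a11 probe 1 was 0.94 above it at day 9 (adjusted p = 0.0287), near its detection limit.

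Other genes of the NRF2 pathway were read from 5 lists, of which 44 of 54 genes were measured. In culture against in vivo, 1, 1, 5, 5, 4 and 22 of the 44 were called higher at days 2, 4, 6, 7, 9 and 14, and 1, 2, 0, 1, 0 and 1 lower. The share higher was 2.27%, 2.27%, 11.4%, 11.4%, 9.09% and 50%, against 4.65%, 4.61%, 5.51%, 5.0%, 4.69% and 17.6% of all probes. These are unlike sets: each of the 44 was read from its brightest kept probe, while all probes include dimmer and unannotated ones. The median difference of the 44 was 1.01 at day 14, against 0.23 over all probes. These counts and this median come from 1 processing. How many of the 44 were called under the alternatives is not given here, so their share beside all probes is shown for that processing only. With median centring, the haem and iron list had no calls at days 6, 7 and 9. In the processing used, 4160 of all probes were called higher at day 14. That number was 5391 with median centring and 1260 in the authors' log2 values. At that age in vivo, 25 of the 44 had fallen below their 7.5 dpp level and 1 had risen above it, beside 26.2% and 19.6% of all probes. In the day 14 culture 0 of the 44 were called against the start, beside 14.4% of all probes in either direction. The markers of spermatids (6 of 6 measured called lower in culture) and of Sertoli cells (5 of 8 higher) moved at the same age, and their part in these counts was not tested.

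Among the 7 measured regulators, Bach1, the repressor that competes with NRF2, was called higher in culture at 5 ages. Its group means were 8.33 ± 0.32, 8.30 ± 0.28, 7.95 ± 0.10, 7.81 ± 0.18 and 7.40 ± 0.27 in culture (SD, n = 3) at days 2, 4, 6, 9 and 14, against 7.09 ± 0.17, 6.99 ± 0.23, 6.06 ± 0.20 (n = 2), 6.53 ± 0.50 and 6.19 ± 0.04 in vivo. The differences were 1.24, 1.31, 1.89, 1.28 and 1.21. At day 7 Bach1 was lower in culture, 6.57 ± 0.17 against 7.33 ± 0.09 in vivo (-0.76 ± 0.22, adjusted p = 0.0103). Without in vivo 16.5 dpp replicate 1 the day 9 difference of Bach1 was 1.00, just under the line. Nfe2l2 itself was 8.38 ± 0.32 in the day 14 culture and 7.03 ± 0.26 in vivo (1.35 ± 0.23, adjusted p = 1.3e-05), and at the other 5 ages its differences were -0.50 to 0.16 with adjusted p of 0.112 to 1. Mafg, a small MAF partner, and Nfe2l1, a relative of NRF2, were also called at day 14 (1.64 for Mafg and 1.09 for Nfe2l1, which was 0.99 without culture day 14 replicate 2).

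In the haem and iron list all 8 genes were measured, and 0, 0, 2, 2, 1 and 4 were called higher and none lower. Slc48a1, a haem transporter, was 0.86, 0.80, 1.06, 1.00, 0.94 and 1.49 higher in culture, with adjusted p of 0.00813 at most, and 2-fold or more at days 6, 7 and 14. Slc40a1, the iron exporter ferroportin, was called at days 6, 9 and 14 (1.23, 1.05 and 1.06). Blvrb, a biliverdin reductase, was called at days 7 and 14 (1.09 and 1.54), and Ftl1, the ferritin light chain, at day 14 (2.07). A second Ftl1 probe was not called at day 14 (0.45) and was lower in culture at day 4 (-1.61). With median centring 0, 0 and 0 of the haem and iron genes were called at days 6, 7 and 9, and 5 at day 14.

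In the conjugation and reduction list, with 16 of 19 genes measured, 3, 1 and 7 genes were called higher at days 7, 9 and 14. Cbr3, a carbonyl reductase, was called at days 7, 9 and 14 (1.09, 1.38 and 1.71, and by a second probe at day 7 only). Mgst1 and Gstp1, glutathione transferases, were called at days 7 and 14. Leaving out single arrays ended the day 7 calls of Cbr3 (0.91 to 0.97) and Mgst1 (0.97 to 0.99) and not that of Gstp1. Day 7 calls also depend on the scaling: with median centring 12.7% of all calls there were higher, where it was 46.8%. A second Mgst1 probe was called at day 14 (1.22) and not at day 7 (0.40). At days 2 and 4, 1 and 2 genes of this list were called lower. Esd, an esterase that hydrolyses a glutathione thioester, was among them at both days (-1.33 and -1.54), and its second probe was not called (-0.52 and -0.38). In the glutathione and thioredoxin list, with 8 of 11 measured, 5 were called higher and 1 lower at day 14, among them the thioredoxin Txn1 (1.79), the peroxiredoxin Prdx1 (1.05) and the efflux pumps Abcc1 (1.79) and Abcc4 (1.32). A second Abcc1 probe did not follow (0.82 at day 14, -0.39 at day 6 beside 1.48). Of 5 measured genes for NADPH supply, Taldo1 of the pentose phosphate pathway was called at day 14 (1.65), Tkt of the same pathway at day 6 (1.00, not called by its other probes) and Me1, the malic enzyme, was lower at day 7 (-1.10). Of the 16 day 14 calls among the genes named from the 5 lists, 13 were kept with every array left out, and of the 19 earlier calls 7 were. The exceptions at day 14 were Nfe2l1, Prdx1 (0.98 without culture day 14 replicate 1) and Slc40a1 (0.80 without culture day 14 replicate 2, 0.86 without in vivo 21.5 dpp replicate 1). Since genes were named for their number of called ages, these counts do not describe the whole lists.

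**Figure D4:**
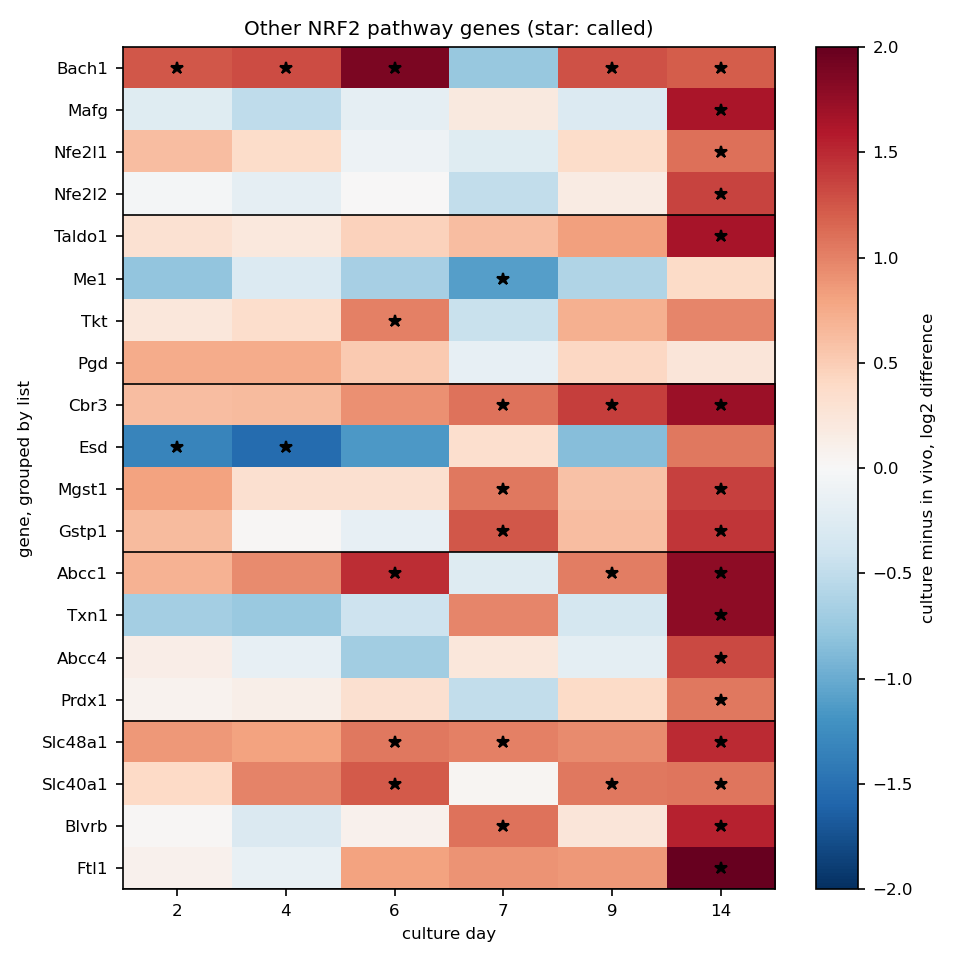
Colour gives the log2 difference, culture minus in vivo, of 20 named NRF2 pathway genes (rows, grouped by list) at 6 culture days (columns), and stars mark calls. Bach1 was starred at every day except day 7, and every other gene shown except Me1, Tkt, Pgd and Esd was starred at day 14.

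For zinc handling, 10 of 13 genes were measured and at most 1 was called in each direction at any age. Mt3, a metallothionein best known from brain, was lower in culture at day 4 (-1.65 ± 0.37, adjusted p = 0.0018) and higher at days 7 and 14 (1.65 and 1.45), a course unlike that of Mt1 and Mt2. Slc30a1, a zinc exporter that MTF1 induces, was lower at day 2 (-1.19 ± 0.20, adjusted p = 6.09e-05). Slc39a8, a zinc importer, was lower at day 14 (-3.63 ± 0.40, adjusted p = 4.87e-09), and Slc39a4, another importer, was higher at day 9 (1.05, and 0.95 to 0.96 without in vivo 16.5 dpp replicate 3 or culture day 9 replicate 2).

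The genes with the group means most like each member's were named by Pearson correlation over the 13 means, as a description. They were Calu (0.972) and Map3k12 (0.970) for Hmox1, Dtna (0.967) and Atp5k (0.955) for Nqo1, Mapkbp1 (0.971) and Reps1 (0.953) for Gclm, Tcirg1 (0.941) and Neil1 (0.940) for Srxn1, Faap24 (0.926) and Tuft1 (0.919) for Slc7a11, Izumo4 (0.970) and Trafd1 (0.958) for Mt1, and Ackr2 (0.869) and Epb41l4a (0.863) for Mt2. Within the set, Hmox1 and Mt1 ran opposite ways (-0.845), Hmox1 and Srxn1 probe 1 correlated at 0.647, and Mt1 and Mt2 at -0.304. All of these points share the same 38 arrays.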

How the data were processed

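RNA of 39 mouse testis samples was labelled with biotin and hybridized to 1-colour bead arrays. The deposited table holds an intensity per probe and array, not normalized, and, per the file headers, a detection p-value beside it. The authors also deposited log2 values of the same arrays, made with lumi per the submitters' processing notes (version not given in the sources used here), and each array's median there was 7.47. The build of the array annotation is not given in the sources used here. One signal column, headed by an array code, was matched to no sample and not used (1 column with its detection p), which left 2 arrays at 13.5 dpp in vivo although the tests had been written for 39 arrays.

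From the intensities, neqc in limma 3.58.1 (R 4.3.3) gave background-corrected, quantile-normalized log2 values (offset 16, control probes inferred from the detection p). Probes detected (p below 0.01) on 3 or more arrays were kept. The fit had 1 mean per group over 13 groups, eBayes with trend and 25 residual degrees of freedom, with Benjamini-Hochberg adjustment over 23665 probes. A probe detected on every array of the higher group and on none of the lower group is given a lower bound of the fold. Genes had the symbols of the platform's annotation (34885 probes with 1 symbol, 18 with several, 10378 with none), and each listed gene was read from the kept probe whose mean over all arrays was highest. The number of arrays limits the precision. Promoters came from RefSeq (GRCm38.p6) and were found for 7 of the 9 genes. The members, the lists and the named genes were chosen with earlier results of these data known. Named genes were all members, up to 4 genes a list with the most called ages, and the 2 genes most like each member. The fit was tested on simulated data.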

Additional observations from a re-analysis of the deposited data

Results flagged for a closer look

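In 3 of the 8 probes the difference between culture and in vivo itself differed between day 2 and day 14, by the interaction test at an adjusted p below 0.05, which 46.3% of all probes passed, so the count itself is no result about these genes. The change was 1.509 for Nqo1 probe 1 (adjusted p = 0.00202), which was lower than in vivo at day 2 and higher at day 14. It was -1.87 for Slc7a11 probe 1 (adjusted p = 0.0013), which was higher in culture at day 2 and lower at day 14 while close to the detection limit. It is a fitted value between groups that include undetected arrays, so its size is not measured. It was -0.782 for Mt1 (adjusted p = 0.000106), under 2-fold and at the upper end of the signal scale. Groups of 3 arrays or fewer were too small for a test of single arrays that stand apart, but each array was left out in turn. Without in vivo 9.5 dpp replicate 2, the array with the fewest detected probes, the Mt2 interaction was -1.58 (adjusted p = 0.000231). Which probes pass therefore depends on that array.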

How the results depend on the processing

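Of 18 calls of member probes, none changed sign under any alternative, and only that of Mt1 at 21.5 against 7.5 dpp in vivo was called under all 10. The counts below are calls over the 8 probes for culture against in vivo, culture against the start, in vivo against 7.5 dpp, culture day 14 against day 2, and the interaction, which were 6, 2, 6, 2 and 2. In the authors' log2 values they were 0, 0, 1, 0 and 0, with 38 arrays and also with all 39, an alternative chosen after seeing the data. Differences there were smaller, and the cause was not tested. An offset of 50 gave 0 against the start and 1 for day 14 against day 2. It also lost the calls of Hmox1 at day 14 against in vivo and of Slc7a11 at 21.5 against 7.5 dpp in vivo. Median centring gave 1 for day 14 against day 2 and added 2 calls elsewhere. Fitting only the compared groups, which have fewer arrays, gave 3 for culture against in vivo. Without the 2-fold minimum, the first 3 counts were 15, 11 and 12. Leaving out each array gave 5 to 8, 1 to 4, 5 to 7, 1 to 3 and 2 to 3, and for the F-tests 4 to 7 in vivo (6 with all arrays) and 2 to 5 in culture (3). Groups share replicate numbers in the labels, which do not say whether the numbers pair the samples. Deviations of same-numbered arrays correlated with a median r of 0.0116 (-0.519 to 0.627), and 62 of 222 such pairs exceeded 0.1. Of pairs with different numbers (median r -0.00973), 71 of 444 did, a smaller share. The medians near 0 do not show that the numbers carry no pairing. The replicate block left every count as it was (6, 2, 6, 2 and 2), and 160 of 160 differences kept their side of the threshold. No filter and a detection p of 0.05 also kept 160 of 160. With median centring the median of all probes in culture against in vivo was -0.31 at day 6, -0.27 at day 7 and 0.34 at day 14, where it was -0.05, -0.01 and 0.23, and the share of higher calls at day 7 to 12.7% from 46.8%, at day 6 to 32% from 66.6% and at day 2 to 65.9% from 52.4%. In the authors' values that share was 39.7% at day 14, where it was 53.2%. Over all probes the 5 counts of calls were 18716, 14939, 20120, 4081 and 8366. They were 5380, 3669, 7715, 1196 and 3590 in the authors' values (5333, 3674, 7624, 1196 and 3591 with all 39 arrays) and 9889, 8318, 11499, 2327 and 4769 with 1 probe per gene. An offset of 50 gave 11870, 8889 and 2607 for culture against in vivo, against the start and day 14 against day 2, and no minimum difference gave 39237, 34717, 35827 and 8737 for the first 4. Signal near background limits Srxn1 and Slc7a11, and at 21.5 dpp in vivo also Hmox1 and Nqo1. The signals of Mt2 were low too, and nothing can be said of Gclc and Txnrd1.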

Other observations

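Glucocorticoids are known inducers of metallothioneins, and their list was read beside the genes above. Of 10 measured glucocorticoid-induced genes, 1, 0, 0, 0, 0 and 4 were called higher in culture than in vivo at days 2, 4, 6, 7, 9 and 14, and none lower. Among all probes 4.65%, 4.61%, 5.51%, 5.0%, 4.69% and 17.6% were called higher and 4.23%, 5.13%, 2.77%, 5.68%, 3.81% and 15.4% lower at those days. Nfkbia, the inhibitor of NF-kappaB, was called at days 2 and 14 (1.39 and 1.75), and by its second probe at day 14 (1.01) but not at day 2 (0.06). Ddit4, an inhibitor of mTOR signalling, the kinase Sgk1 and the transcription factor Klf9 were called at day 14 (1.46, 1.49 and 1.18). The median of the 10 genes was 0.88 at day 14, against 0.23 over all probes.

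ATF4 drives the amino acid response and is a known activator of Slc7a11. Of 14 measured targets on its list, 3, 2, 0, 2, 2 and 4 were called higher at those days and 1, 1, 0, 0, 1 and 2 lower, beside the same shares of all probes. Chac1, which degrades glutathione, was higher in culture at days 2, 7 and 9 (1.41, 1.47 and 1.28) and lower at day 14 (-2.16). Phgdh, of serine synthesis, was lower at days 2, 4 and 9 (-1.71, -2.02 and -1.51), Nupr1, a stress-induced chromatin protein, was higher at days 2, 9 and 14 (1.51, 1.62 and 1.53), and Aldh1l2, of mitochondrial folate metabolism, was higher at days 2, 4 and 7 (1.23, 1.17 and 1.05). A second Aldh1l2 probe was called at day 2 (1.08) and not at days 4 and 7 (0.78 and -0.58). Leaving out single arrays ended the Phgdh calls at days 2 and 9 (down to -1.0 and -0.93), all 3 of Nupr1 (1.05 to 1.44), all 3 of Aldh1l2 (0.80 to 0.99) and that of Chac1 at day 9 (1.11 to 1.17).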
